A study of Mus musculus with 4 samples.

Results

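Broad domains of topoisomerase IIα (TopoIIa) activity were examined in mouse embryonic stem cells. A broad domain was an autosomal peak (chromosomes 1 to 19) wider than 5 kb in the wild-type peak list, and 340 of the 16012 autosomal wild-type peaks met this rule. The domains were thus chosen by their wild-type width, and their widths, scores and spacing are given as a description. The whole wild-type list held 16591 peaks, and 3 further peaks over 5 kb, all on X, were not counted as members. The remaining 15672 autosomal wild-type peaks, of at most 5 kb, served as the comparison and are called narrower peaks below.

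The embryonic stem cells came from Brg1f/f-actinCreER mice and form 1 line, grown on mouse embryonic feeders. In every group of the study the line carried V5-tagged human TopoIIa and a knockdown of the mouse enzyme, so the controls were not cells with their own TopoIIa. The wild-type group was plated with ethanol and the Brg1-/- (knockout) group with tamoxifen, which switches on the Cre recombinase that deletes Brg1, each for 24 h and then 48 h in stem cell medium. Both received 100 µM etoposide for 10 min before lysis, and TopoIIa-DNA complexes were isolated with an antibody to V5. Each genotype had 1 V5 library and 1 input library, and the inputs were not analysed here. A single library per genotype leaves no spread between replicates and no test between genotypes, and the 95% intervals given below cover counting error only. The depth behind the peak lists is unknown, and neither list measures Brg1 itself.

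TopoIIa cuts both strands of one DNA duplex, passes another duplex through the gap and seals it again, and so untangles sister DNA molecules before cell division. Etoposide stops the resealing step and leaves the enzyme bound covalently to the DNA, which lets an antibody pull down the places where it was at work. Brg1 is the ATPase subunit of the BAF (mSWI/SNF) complex, which slides and evicts nucleosomes. A called peak marks a stretch of DNA where the peak caller found more sequenced fragments than its background, and fragments around 300 bp had been selected for these libraries.

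The broad domains were a small part of the list but a larger part of its length. They covered 2.52 Mb, which was 6.69% of all autosomal wild-type peak sequence, with 2.12% of the peaks. Their widths ran from 5007 to 89408 bp with a median of 6168 bp (interquartile range 5382 to 7478 bp), against a median of 2150 bp for the narrower peaks (1803 to 2543 bp). Between 5 and 6 kb there were 155 domains, between 6 and 8 kb 112, between 8 and 10 kb 39, between 10 and 20 kb 28 and above 20 kb 6. The distribution had no step at the limit. The 5 domains just above it measured 5007, 5011, 5023, 5024 and 5025 bp, with scores of 462.22, 296.93, 177.13, 289.26 and 210.36. The 5 autosomal peaks just below it measured 5000, 5000, 4989, 4983 and 4968 bp, with scores of 400.12, 243.45, 164.07, 464.05 and 335.06. No knockout peak lay on any of these 10, where 4.62% of all autosomal wild-type peaks had one.

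The 10 widest domains differed among themselves in score. The widest lay at chr8:126059865-126149272 (89408 bp) and had a score of only 80.28. The score is the authors' own value for each peak, given without a header, and was used only to rank peaks within 1 list. The next, chr6:114543236-114587853 (44618 bp), scored 118.12, and chr10:57683195-57703827 (20633 bp) scored 112.58. These 3 stood at the 33.9th, 55.8th and 53.4th percentile of the autosomal wild-type scores. The other 7 of the 10 widest scored far higher, from 456.8 to 3100. They were chr6:114460818-114484854 (24037 bp, score 540.45), chr9:121128769-121149349 (20581 bp, 892.47), chr12:114147343-114167847 (20505 bp, 565.1), chr3:93006417-93024845 (18429 bp, 3100), chr12:113966542-113984508 (17967 bp, 801.21), chr6:114439256-114455684 (16429 bp, 456.8) and chr18:20772945-20788382 (15438 bp, 1370.72). The 3 low-scoring wide domains each held 6 or more knockout peaks, whereas 6 of the other 7 held none and the remaining one, on chromosome 6, held 1. Over all autosomal wild-type peaks 4.62% had a knockout peak. The 3 include the 2 widest domains, and a longer interval has more room for knockout peaks. Among all 340 domains the contrast ran the other way, with a median score of 850.03 with a knockout peak and 368.45 without.

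**Figure D1:**
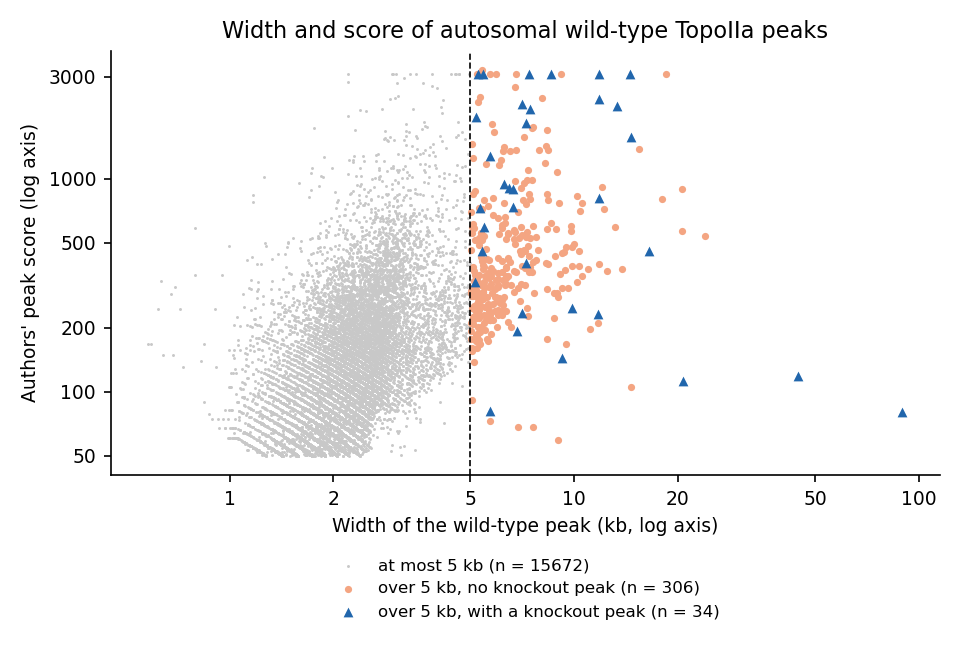
Each point is an autosomal wild-type peak, with its width in kb on the horizontal log axis and the authors' score on the vertical log axis. Grey points are peaks of at most 5 kb, orange circles the 306 broad domains with no knockout peak and blue triangles the 34 with one, and the dashed line marks 5 kb. The widest domain, at 89408 bp, sits at the bottom right with a score of 80.28.

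Broad domains scored higher than most wild-type peaks, which is a description, since width and score come from the same library and the same peak call. Their median score was 377.68 (95% interval of the median over peaks 349.94 to 410.55, n = 340) against 103.73 (102.32 to 105.18, n = 15672) for the narrower peaks. Scores of at least 1000 were reached by 47 broad domains (13.8%) and by 132 narrower peaks (0.842%). Of the 26 autosomal peaks with a score of 3100 or more, 13 were broad, and of the 100 top-scoring peaks 36 were. Wider did not always mean higher within the domains: the median score rose from 292.88 at 5 to 6 kb through 460.54 at 6 to 8 kb and 450.04 at 8 to 10 kb to 647.98 at 10 to 20 kb, and was 329.29 in the 6 domains above 20 kb. Across the 340 domains width and score were weakly related (Spearman rho = 0.30), and across the 15672 narrower peaks rho was 0.56.

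Most of the highest-scoring domains were of moderate width. The top score, 3233.06, belonged to chr14:21072001-21077397 (5397 bp), and the next, 3109.65, to chr13:6604114-6613238 (9125 bp). A further 11 domains shared the score 3100, which 24 autosomal wild-type peaks had, so their order carries no information. Taken by width, the first 8 of these were chr3:93006417-93024845 (18429 bp), chr3:93083082-93097610 (14529 bp), chr12:114012652-114024457 (11806 bp), chr17:39978571-39987150 (8580 bp), chr12:54026942-54034313 (7372 bp), chr9:122449378-122456133 (6756 bp), chr8:12129657-12135591 (5935 bp) and chr13:114592344-114598057 (5714 bp). The pair on chromosome 3 lay 58.2 kb apart, and each had the other as its only wild-type peak within 100 kb. The site on chromosome 14, that on chromosome 8 and the second on chromosome 13 had no other wild-type peak within 100 kb.

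At the other end, 7 domains scored under 100 (2.06%), against 48.1% of the narrower peaks. The 5 lowest were chr1:90125405-90134369 (8965 bp, score 59.07), chr16:3234743-3241631 (6889 bp, 68.01), chr4:3006673-3014271 (7599 bp, 68.2), chr1:90134636-90140317 (5682 bp, 72.67) and the 89408 bp domain on chromosome 8. The pair on chromosome 1 was separated by 266 bp, and no knockout peak lay within 484 kb of either. The domains on chromosomes 4 and 16 lay at the start of the called part of their chromosomes, at 0.00249% and 0.209% of the distance from the first to the last wild-type peak. Their nearest knockout peaks were 2.35 and 0.411 kb away.

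Chromosome 8 carried 82 of the 340 domains (24.1%, exact Clopper-Pearson 95% interval 19.7 to 29.0%) but 7.76% (7.34 to 8.19%) of the narrower peaks. Of its 1298 wild-type peaks 6.32% (5.06 to 7.78%) were broad, against 1.75% (1.55 to 1.98%) of the 14714 on the other autosomes. The next highest shares were on chromosomes 15 (26 domains, 3.59%), 10 (28, 3.44%), 12 (32, 3.44%) and 17 (23, 3.10%). The interval for chromosome 15 (2.36 to 5.22%) reached into that for chromosome 8, and those for 10, 12 and 17 ended below it, at 4.93%, 4.82% and 4.61%. Chromosome 13 had 2 domains among 491 peaks (0.407%). The domains of chromosome 8 were like the others in width (median 6159 bp against 6178 bp) and in score (372.86 against 379.61). They had more other wild-type peaks within 100 kb, a median of 13.5 against 8. The narrower peaks of chromosome 8 did too, 5 against 2 on the other autosomes.

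**Figure D2:**
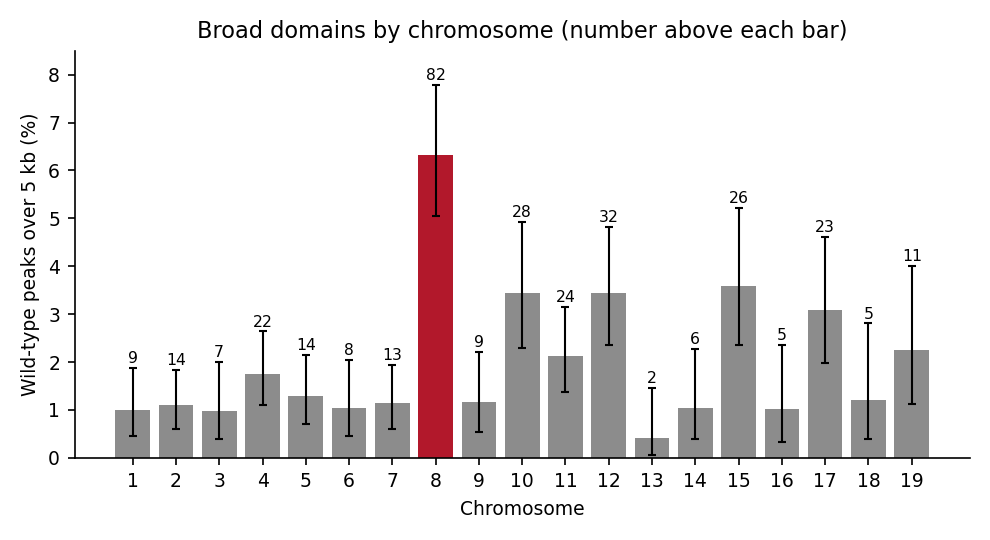
Bars give the share of each autosome's wild-type peaks that were wider than 5 kb, in percent, with exact 95% intervals as error bars and the number of domains above each bar. Chromosome 8, in red, had 82 domains and 6.32%, and chromosome 13 had 2 domains and 0.407%.

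Within chromosome 8 the domains were concentrated in a few stretches. Between 120 Mb and the end of the called part there were 34 domains, between 70 and 80 Mb 20, and elsewhere at most 9 in 10 Mb. The wild-type peaks as a whole were also dense in these windows, with 319 and 199. Between 50 and 60 Mb there were 5 domains among only 36 wild-type peaks, and 4 of those 5 carried a knockout peak, 3 of them in 1 run with gaps of 199 and 49 bp. In the windows richest in domains 2 of 34 and 1 of 20 did, and on the whole chromosome 8.54% of the domains (3.50 to 16.8%). Beside these stood 4.62% of all autosomal wild-type peaks and 3.125% (2.22 to 4.26%) of the narrower peaks of chromosome 8.

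Taken over all autosomes together, the domains leaned towards the distal end. That is the end away from the centromere, which in the mouse lies at the start of each chromosome. Of the 340 domains 106 (31.2%, 26.3 to 36.4%) lay in the last 10% of the distance between the first and last wild-type peak of their chromosome, against 2447 of the narrower peaks (15.6%, 15.05 to 16.2%). Without chromosome 8 the shares were 27.9% (22.5 to 33.8%) and 14.8% (14.2 to 15.4%). Most of the 106 lay on chromosomes 8, 11 and 12, with 34 on chromosome 8, so the lean was not shown for every autosome. Chromosomes 11 and 12 were not left out. The group with the most domains, on chromosome 10, had them at 61.0 to 61.4% of that distance. In the first 10% the shares were close, 9.12% (6.28 to 12.7%) of domains and 8.61% (8.17 to 9.06%) of narrower peaks.

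Broad domains stood in crowded neighbourhoods of the wild-type list. The nearest other wild-type peak was a median of 2.63 kb away (1.85 to 3.57 kb), edge to edge, and for the narrower peaks 31.98 kb (30.72 to 33.11 kb). A wild-type peak lay within 1 kb of 114 domains (33.5%, 28.5 to 38.8%) and of 6.85% (6.46 to 7.26%) of narrower peaks. Within 100 kb a domain had a median of 9 other wild-type peaks and a narrower peak had 2, and at least 5 were found around 234 domains (68.8%) and around 28.3% of narrower peaks. The median rose with width already among narrower peaks, from 1 up to 2 kb through 2 at 2 to 3 kb and 4 at 3 to 4 kb to 7 at 4 to 5 kb. In domains it was 9 at 5 to 6 kb, 8 at 6 to 8 kb, 13 at 8 to 10 kb, 14 at 10 to 20 kb and 3.5 above 20 kb. Crowding thus did not begin at the 5 kb limit. A domain also more often had the highest score of its surroundings: among the 319 with any neighbour within 100 kb, 151 (47.3%, 41.7 to 53.0%) outscored all of them or tied, against 27.1% (26.3 to 27.9%) of narrower peaks with a neighbour. Isolated domains existed too, and 21 (6.18%) had no wild-type peak within 100 kb.

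**Figure D3:**
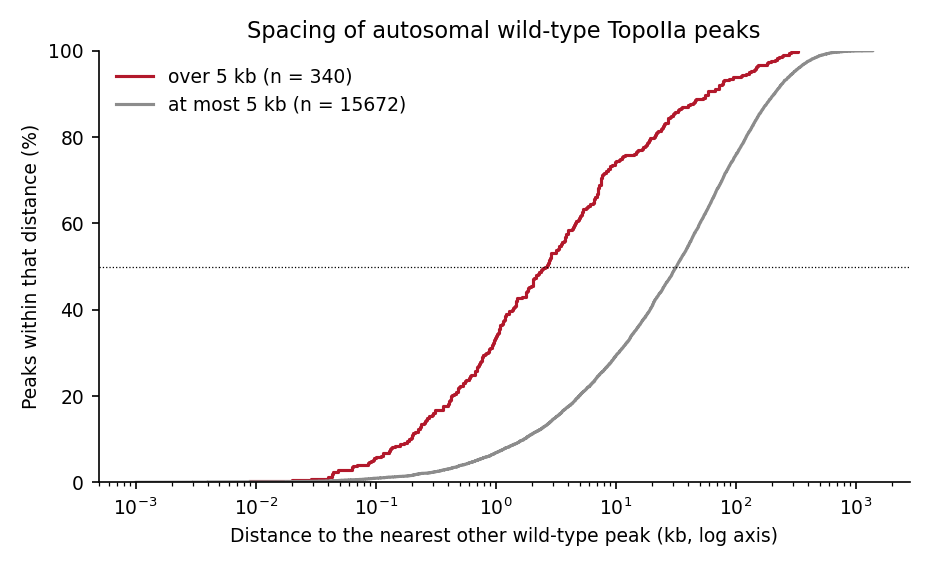
The curves give the cumulative share of peaks, in percent, against the edge-to-edge distance to the nearest other wild-type peak in kb on a log axis, for the 340 broad domains (red) and the 15672 narrower peaks (grey). The dotted line at 50% is crossed at 2.63 kb by the domains and at 31.98 kb by the narrower peaks.

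The domains also lay close to each other. Another broad domain was found within 100 kb of 169 of the 340 (49.7%, 44.3 to 55.2%) and within 10 kb of 65 (19.1%, 15.1 to 23.7%). For comparison, 10.8% (10.3 to 11.3%) of narrower peaks had a broad domain within 100 kb. With gaps of at most 100 kb the domains formed 57 groups, of which 38 were pairs and 19 held 3 or more. The 19 held 93 domains, and 8 of the 19, with 41 domains, were on chromosome 8.

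The group with the most domains was chr10:80491436-81008714, where 11 domains of 5514 to 11804 bp and 61 wild-type peaks in all stood in 517 kb. Their scores ran from 306.96 to 597.76, and no knockout peak was called in the whole stretch. The next, chr8:122752429-123099310, held 10 domains with scores of 186.35 to 1100.48 in 347 kb, again without a knockout peak. At chr12:113840411-114167847 there were 8 domains of 6210 to 20505 bp in 327 kb, which filled 28.6% of the stretch. They included one of the domains tied at 3100, and that domain alone among the 8 had knockout peaks.

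The remaining groups among the 10 with the most domains were shorter. Those with 6 domains were chr8:73231152-73441869, chr8:124714439-124862798 and chr15:75931914-76041048, and those with 5 were chr8:125001856-125149524 and chr12:113348069-113419430. The last of these was the densest of the 10, with 53.6% of its 71.4 kb inside broad domains. Those with 4 were chr8:86599891-86784795 and chr12:114334008-114429512. Together the 10 groups held 65 domains and 233 wild-type peaks in 2.16 Mb, and 5 of them lay on chromosome 8 and 3 on chromosome 12. A knockout peak lay on 1 of the 65 domains, beside 4.62% of all autosomal wild-type peaks and 10.0% of all broad domains.

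The question put to the knockout list was how often these domains still carried a called TopoIIa site without Brg1. That list was much shorter, with 4200 autosomal peaks of median width 141 bp, so most of its peaks are short beside a domain. The widest knockout peak on a domain measured 5922 bp, on chr17:39978571-39987150 (8580 bp). A knockout peak lay on 34 of the 340 domains (10.0%, 7.03 to 13.7%), with an overlap of 1 bp or more, and on the other 306 there was none. A knockout peak also lay on 4.62% of all autosomal wild-type peaks and on 706 of the narrower peaks (4.50%, 4.19 to 4.84%). A longer interval meets more peaks wherever they lie, so a window of fixed size was also used. On the middle 2 kb of each peak, 24 domains (7.06%, 4.57 to 10.3%) and 701 narrower peaks (4.47%, 4.15 to 4.81%) had a knockout peak, against 4.53% over all autosomal wild-type peaks, and the 2 intervals touched. In the 6146 narrower peaks of up to 2 kb this window took in the whole peak and could reach past its edges.

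The share with a knockout peak depended on where the width limit was set. It was 6.54% for peaks over 4000 bp and 19.2% for peaks over 8000 bp, and 5.57% of 628 domains when wild-type peaks with gaps of at most 1 kb were first merged. By width, 9 of 155 domains of 5 to 6 kb (5.81%, 2.69 to 10.7%), 11 of 112 of 6 to 8 kb (9.82%, 5.01 to 16.9%), 3 of 39 of 8 to 10 kb (7.69%, 1.62 to 20.9%), 8 of 28 of 10 to 20 kb (28.6%, 13.2 to 48.7%) and 3 of 6 above 20 kb (11.8 to 88.2%) had a knockout peak on them. Among peaks of 4 to 5 kb, just under the limit, the share was 3.55% (14 of 394, 1.96 to 5.89%).

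Counted per length, the domains held 61.1 knockout peak centres per Mb (51.8 to 71.5, 154 centres), against 21.0 per Mb (19.5 to 22.6) in narrower peaks and 1.74 per Mb over the called span of the autosomes. A single domain set much of this rate: without the 89408 bp domain on chromosome 8, which held 59 of the 154, it was 39.1 per Mb (31.6 to 47.8). Without both domains that held 10 or more knockout peaks it was 33.5 per Mb (26.6 to 41.6). The rate also differed by width, with 23.9 per Mb (14.6 to 36.9) at 5 to 6 kb and 30.2 (19.2 to 45.3) at 6 to 8 kb. At 8 to 10 kb it was 11.5 (3.12 to 29.3), and all of these intervals overlapped that of the narrower peaks. At 10 to 20 kb it was 98.9 (68.9 to 137.5) and above 20 kb 327.6 (256.3 to 412.6). Each of these wider classes includes 1 of the domains that held 10 or more. Only above 10 kb did the interval lie above that of the narrower peaks. There the counts came from few domains, 35 knockout peaks on 8 domains at 10 to 20 kb and 72 on 3 above 20 kb. Knockout peaks on the same domain are not independent, so these intervals are too narrow, and a higher rate per domain was not tested. Outside the domains the rate was lower. In the first 5 kb outside them there were 3.16 knockout centres per Mb (1.51 to 5.81), and from 5 to 20 kb 1.30 (0.647 to 2.32). The corresponding rates around narrower peaks were 2.77 (2.50 to 3.06) and 1.24 (1.12 to 1.36).

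Whether a domain had a knockout peak went with how isolated it was. The 34 domains with a knockout peak had a median of 1 other wild-type peak within 100 kb (1 to 2), and the 306 without had 10 (9 to 11). Among the 51 domains with 0 or 1 neighbour 20 had a knockout peak (39.2%, 25.8 to 53.9%), among the 55 with 2 to 4 there were 9 (16.4%, 7.77 to 28.8%), and among the 73 with 5 to 9 there were 4 (5.48%, 1.51 to 13.4%). None of the 71 domains with 10 to 14 neighbours had one (up to 5.06%), and 1 of the 90 with 15 or more did (1.11%, 0.0281 to 6.04%). The narrower peaks had shares of 7.26% (6.67 to 7.88%) with 0 or 1 neighbour, 3.63% (3.08 to 4.25%) with 2 to 4, 0.794% (0.492 to 1.21%) with 5 to 9, 0.798% (0.365 to 1.51%) with 10 to 14 and 1.22% (0.528 to 2.39%) with 15 or more. In the first 3 of these classes the interval of the domains lay above that of the narrower peaks, and in the last 2 the intervals overlapped, with the lower value in the domains. The classes were not matched for score. Median scores of domains and narrower peaks were 989.91 and 114.69 with 0 or 1 neighbour, 461.56 and 97.2 with 2 to 4, and 294.23 and 90.73 with 5 to 9. The part of score in these differences was not tested. Over all with 5 or more neighbours the shares were 2.14% (0.697 to 4.92%) for domains and 0.858% (0.608 to 1.18%) for narrower peaks, and the value for domains became 0.552% when neighbours were counted within 50 kb and 7.12% within 500 kb. With wild-type scores of at least 100 only, the domains without a knockout peak had a median of 5 neighbours within 100 kb, and those with one still 1. Counted on the middle 2 kb, which gives every peak the same length, the shares with 0 or 1 neighbour were 27.5% (15.9 to 41.7%) and 7.27% (6.68 to 7.90%). With 2 to 4 neighbours they were 9.09% (3.02 to 19.95%) and 3.56% (3.01 to 4.17%), so in this class the intervals then overlapped. With 5 to 9 neighbours both shares were the same as on the whole peak, and the interval of the domains still lay above. In the last 2 classes the intervals overlapped as before.

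The 5 domains with a knockout peak amid 5 or more neighbours, named after their values were seen, were chr12:114012652-114024457, chr8:126059865-126149272, chr8:127543328-127548483 (5156 bp, score 326.05), chr15:85369585-85376619 (7035 bp, 233.56) and chr17:23873752-23880980 (7229 bp, 400.84). The first held 14 knockout peaks, the next 59 and the others 1 each. Standing apart from other broad domains went the same way by count: 23 of 171 single domains (13.5%, 8.72 to 19.5%), 5 of 76 in pairs (6.58%, 2.17 to 14.7%) and 6 of 93 in groups of 3 or more (6.45%, 2.40 to 13.5%) had a knockout peak, with intervals that overlapped. The share over all autosomal wild-type peaks, 4.62%, lay inside the intervals of the pairs and of the groups. Of the 6 in groups, 3 stood in the run chr8:57974410-57999796 and 2 in chr6:114439256-114587853.

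Score gave a different order. With the domains in 5 bins of 68 by score, 8 (11.8%, 5.22 to 21.9%) had a knockout peak in the lowest bin, then 1 (1.47%, 0.0372 to 7.92%), 3 (4.41%, 0.919 to 12.4%), 4 (5.88%, 1.63 to 14.4%) and 18 (26.5%, 16.5 to 38.6%) in the highest. Narrower peaks in the same score ranges had shares of 3.50%, 9.51%, 9.30%, 11.8% and 15.6%. Weighted to the 5 score bins of the domains, the narrower peaks had a share of 9.93%, against the 10.0% of the domains. On the middle 2 kb it was 9.83% against 7.06%. This weighting does not remove the difference in score inside the lowest range. In the lowest range the interval of the domains lay above the share of the narrower peaks, and in the next 3 ranges the domains had the lower value, with intervals that overlapped, as they did in the highest range. On the middle 2 kb these calls changed. In the lowest range the domains then had 7.35% (2.43 to 16.3%) and the narrower peaks 3.49% (3.19 to 3.82%), which overlapped. In bin 2 no domain had a knockout peak there (up to 5.28%) against 9.32% (7.59 to 11.3%) of narrower peaks, and in bin 4 the shares were 1.47% (0.0372 to 7.92%) and 11.8% (8.82 to 15.2%), so in both the domains lay below. Bins 3 and 5 still overlapped. The number of neighbours moved with these bins. Domains of bins 2, 3 and 4 had medians of 11, 10 and 12 wild-type neighbours and those of the highest bin 2, while the narrower peaks had 1 in all 4 of these ranges. The part of score and of neighbours in each other's pattern was not tested.

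**Figure D4:**
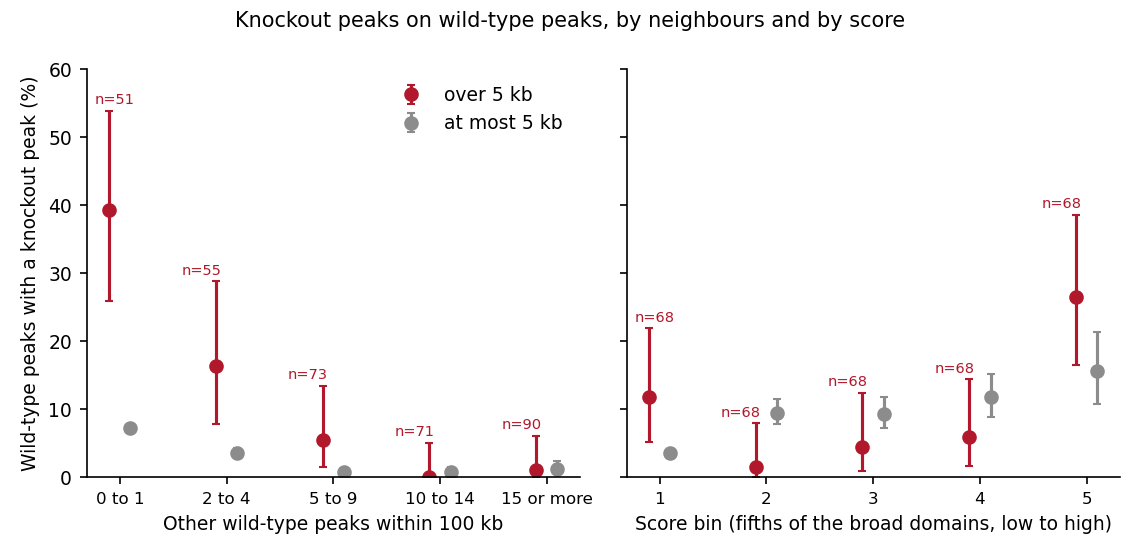
Points give the percentage of wild-type peaks that overlap a knockout peak, with exact 95% intervals, for broad domains (red, with their number) and narrower peaks (grey), by the number of other wild-type peaks within 100 kb (left) and by score in 5 bins that hold 68 domains each (right). On the left the domains fall from 39.2% with 0 or 1 neighbour to 1.11% with 15 or more, and on the right the highest score bin stands at 26.5%.

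Among the 34 domains with a knockout peak, 17 held 1 and 17 held 2 or more. The counts above 1 were 2 in 4 domains, 3 in 2, 4 in 3, 5 in 2, 6 in 1, 7 in 2, 8 in 1, 14 in 1 and 59 in 1. More than 1 knockout peak was thus found on 5.0% of domains (2.94 to 7.88%) and on 0.172% of narrower peaks (0.114 to 0.251%), whose wide difference in length bears on this count. The domains with a knockout peak had a median width of 7249 bp (6455 to 11757 bp) and a median score of 850.03 (400.84 to 1937.57), against 6038 bp and 368.45 for the 306 without.

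The 59 knockout peaks of chr8:126059865-126149272 ran through almost its whole length, over 84.4 kb or 94.4% of the domain. They were 95 to 384 bp wide, scored 50.3 to 155.69, and were separated by gaps of 5 to 6715 bp (median 972 bp), so that they covered 11.3% of the domain. This made 0.660 knockout peaks per kb. The domain at chr12:114012652-114024457 was denser at 1.19 per kb, with 14 peaks over 8.41 kb and gaps of 27 to 1317 bp. Densest of all was chr15:91736411-91741680 (5270 bp, score 3100), with 7 knockout peaks at 1.33 per kb. Its knockout peaks scored 50.31 to 191.12.

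On chromosome 8 a run of 3 domains tiled chr8:57974410-57999796 with gaps of 199 and 49 bp between them. They measured 11837, 6646 and 6656 bp, scored 809.98, 737.82 and 890.08 and held 8, 4 and 4 knockout peaks. In the 25.4 kb from the first edge to the last there were thus 16 knockout peaks, all on the domains. Another run, chr6:114439256-114587853, held 3 domains of 16429, 24037 and 44618 bp among 4 wild-type peaks. Of the 15 knockout peaks in its 149 kb, 7 lay on a domain, 1 on the first and 6 on the last, and the middle domain, whose score was the highest of the 3 at 540.45, had its nearest knockout peak 0.433 kb outside its edge.

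The remaining domains among the 10 with the most knockout peaks were chr10:57683195-57703827 with 7, all in the first 58.0% of its width, chr1:172992909-173007522 (14614 bp, score 1565.3) with 5, and chr6:146660045-146665727 (5683 bp, 1274.55) with 5. The median score of the knockout peaks ran from 55.16 to 92.48 over these 10 domains, beside a median of 58.36 for all autosomal knockout peaks. One more domain, chr2:98501472-98508915 (7444 bp, score 2129.64), held 4 knockout peaks as the last of the 10 did and was placed after them by its lower number per kb (0.537). It is named after its values were seen: its 4 knockout peaks scored 598.84, 926.2, 2127.67 and 2520.3, far above those of the 10.

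Over all 154 knockout peaks on broad domains the median score was 65.89 (61.71 to 70.70), against 65.11 (63.41 to 66.14) on narrower peaks and 57.18 (56.91 to 57.68) on no wild-type peak. Scores of at least 100 were held by 24 of the 154 (15.6%, 10.2 to 22.3%), by 21.2% (18.3 to 24.3%) on narrower peaks and by 4.50% (3.82 to 5.27%) elsewhere. With only such knockout peaks, 2.65% of the domains (1.22 to 4.97%) and 0.957% of narrower peaks (0.811 to 1.12%) overlapped one. The median width of the 154 was 174 bp, with a range of 95 to 5922 bp, and together they spanned 48.1 kb.

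Taken over all 154 together, the placement of knockout peaks was more even on broad domains than on narrower peaks. Of the 154, 45 (29.2%, 22.2 to 37.1%) had their centre in the middle 25% of the domain, and 417 of the 737 on narrower peaks did (56.6%, 52.9 to 60.2%). The outermost 10% at either end held 15 of the 154 (9.74%, 5.55 to 15.6%) and 11 of the 737 (1.49%, 0.747 to 2.65%). The value rested in part on a few domains. On the 2 domains that held 10 or more, which share out 59 and 14 knockout peaks, 17 of 73 (23.3%, 14.2 to 34.6%) were central, on those with 2 to 9 it was 20 of 64 (31.3%, 20.2 to 44.1%), and on those with 1 it was 8 of 17 (47.1%, 23.0 to 72.2%), and these 3 intervals overlapped. Knockout peaks of 1 domain are not independent, so the intervals are too narrow. For the domains with 1 knockout peak the central interval took in the 56.6% of narrower peaks. None of those 17 lay in these outermost parts, which allows a share of up to 19.5%. Of the 15 in the outermost parts, 11 lay on the 2 domains that held 10 or more. Without chromosome 8, 38.4% were central (27.2 to 50.5%).

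**Figure D5:**
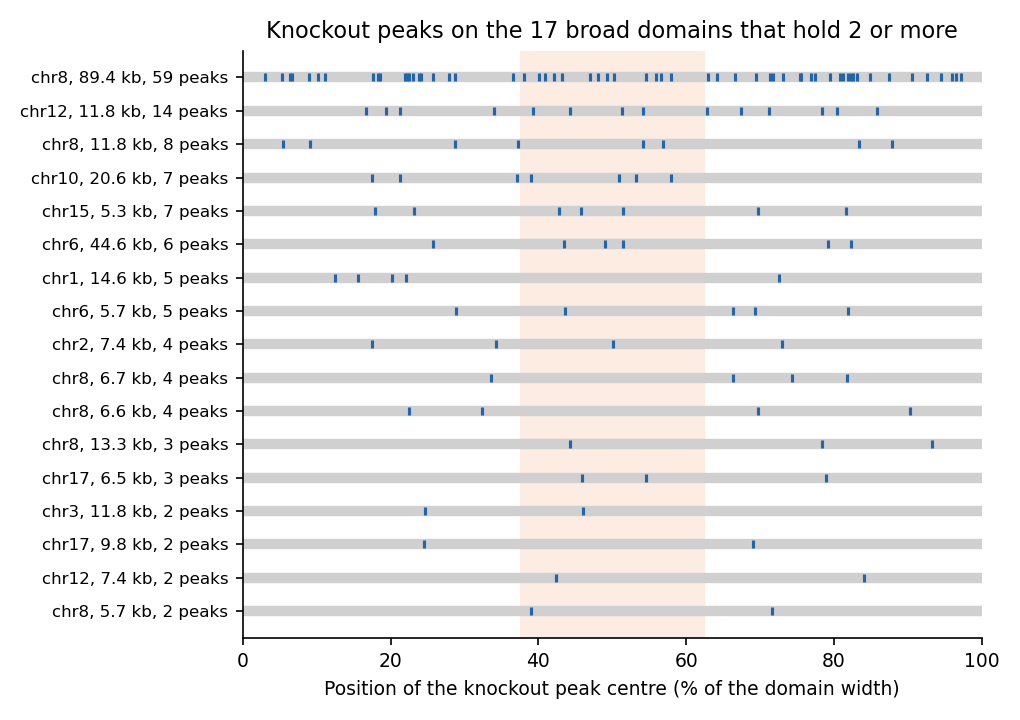
Each grey bar is a broad domain that holds 2 or more knockout peaks, drawn from its first to its last base as 0 to 100% of its width, and each blue tick is the centre of a knockout peak. The shaded band is the middle 25%, and the domain of 89.4 kb has ticks from 2.98% to 97.2% of its width.

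Most domains had no knockout peak near them either. Over all 340, the nearest knockout peak was a median of 200.9 kb away (169.3 to 244.5 kb), and for narrower peaks 246.5 kb (239.3 to 253.6 kb). Allowing 1 kb on either side raised the number of domains with a knockout peak from 34 to 37, and 10 kb raised it to 43 (12.6%, 9.31 to 16.7%), against 8.28% (7.85 to 8.72%) of narrower peaks. Both domains with the top scores were without one: the nearest knockout peak was 22.4 kb from chr14:21072001-21077397 and 54.5 kb from chr13:6604114-6613238. A knockout peak lay on 6 of the 13 domains with scores of 3100 and above, beside 4.62% of all autosomal wild-type peaks. In the highest of the 5 score bins, which is wider, it lay on 26.5% of domains and 15.6% of narrower peaks.

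Whether the callers' settings were equal for both lists is not stated, and a missing knockout peak means only that none was called. Neither the inputs nor the mm9 sequence or annotation was used, so reads that any library collects at repeated sequence cannot be told apart from TopoIIa activity at these domains, and no gene or promoter was assigned.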

How the data were processed

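TopoIIa-DNA complexes were mapped by V5 immunoprecipitation and sequencing in 1 wild-type and 1 Brg1-/- library. For each, the authors deposited a peak list with positions and a score per peak, and appear to have called peaks per library. The submitters' processing notes name MACS 1.4.2 and Bowtie 0.12.8, without roles, and mm9 as the build. The score has no header, and is used only to rank or filter peaks within a list. Thresholds, control and depth are not stated.

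Positions are in mm9 and printed 1-based. A peak was counted as hit when a knockout peak overlapped it by at least 1 bp. Rates per Mb count knockout peak centres. Neighbours are other wild-type peaks within 100 kb, edge to edge. Shares have exact Clopper-Pearson 95% intervals, rates exact Poisson intervals and medians binomial order-statistic intervals, all treating peaks as independent. No test was run, because each genotype has 1 library and the domains were chosen on their own widths. The members and the rules were chosen with earlier results of these data known. Named regions are the 10 widest domains, the 10 of highest score, the 10 with the most knockout peaks (ties by number per kb), the 5 of lowest score, the 5 on either side of the width limit and the 10 groups with the most domains. The bins by score and by neighbours, the zones around domains and the distal 10% were added after seeing the data. The available gene table is of the build GRCm38.p6 and was not used. The counting functions were tested on simulated data. The tools were scipy 1.17.1, pandas 2.3.3, matplotlib 3.10.9 and numpy 2.4.6 under Python 3.11.15.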

Additional observations from a re-analysis of the deposited data

How the results depend on the processing

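Of 134 alternative values, 88 stayed within the 95% interval of the reported value or, for the number of domains, within 1.5 times of it, and 46 moved. The number of domains (340) became 734 over 4000 bp, 73 over 8000 bp and 628 after merging wild-type peaks up to 1 kb apart. The share with a knockout peak (10.0%) became 6.54%, 19.2% and 5.57% under these 3 settings and 2.65% with knockout scores of at least 100. On the middle 2 kb (7.06%) it became 12.3% over 8000 bp, 3.82% after merging and 2.06% with knockout scores of at least 100. For narrower peaks (4.50%) it became 0.957% with that knockout limit and 6.68% with wild-type scores of at least 100. Knockout centres per Mb of domain (61.1) became 40.7 over 4000 bp, 120.3 over 8000 bp, 32.2 after merging, 33.5 without the domains holding 10 or more knockout peaks, 38.9 with wild-type scores of at least 100, 9.52 with knockout scores of at least 100, 39.1 without chromosome 8 and 39.1 without the widest domain. Per Mb of narrower peak (21.0) the rate became 27.8 with the wild-type and 4.44 with the knockout limit. The central share (29.2%) became 38.4% without chromosome 8, 37.5% with knockout scores of at least 100 and 54.5% for the middle 50% of the width. The median score (377.68) became 295.86 over 4000 bp, 475.56 over 8000 bp and 254.46 after merging. The median number of neighbours (9) became 13 over 8000 bp, 7 after merging, 5 with wild-type scores of at least 100, 5 within 50 kb and 35 within 500 kb. For domains without a knockout peak this number (10) became 14 over 8000 bp, 7 after merging, 5 with wild-type scores of at least 100, 6 within 50 kb and 38 within 500 kb, and for those with one (1) it became 5 within 500 kb. The share of domains near another (49.7%) became 32.9% over 8000 bp, 42.6% without chromosome 8, 37.1% within 50 kb and 64.7% within 500 kb. Leaving out chromosome 8 or the widest domain was chosen after seeing the data. Higher limits on score or width leave fewer peaks, and the lower width limit leaves more. The cause was not tested further. No paired analysis was possible because a single library represents each genotype.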
